A study of Mus musculus with 6 samples.

Results

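The genes described here encode surface proteins through which a macrophage or dendritic cell raises or restrains a T-cell response, or is itself restrained. The members are the 10 genes of a list, matched to the table by symbol: Cd40, Cd80, Cd83, Cd86, Cd274, Pdcd1lg2, Havcr2, Vsir, Icosl and Cd200r1. Of these 10, 9 had a row in the deposited table of 17217 rows, and Pdcd1lg2, which encodes PD-L2, the other ligand of PD-1, had none and is counted as not detected. The table holds TPM, a transcript abundance scaled by gene length and library total, so levels of different genes can be set side by side.

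The cells were mouse bone marrow-derived macrophages. They were grown from marrow of mice aged 8 weeks in 30 ng/mL M-CSF, which drives macrophage growth, and every library came from cells given 100 ng/mL lipopolysaccharide (LPS) for 24 h, so the data hold no unstimulated level. The Control group was CD74+/+ (3 libraries) and the knockout group CD74-/- (3 libraries), read from the titles and genotype labels because the protocol attached to every library speaks of wild-type mice. CD74 chaperones MHC class II as its invariant chain and also binds the cytokine MIF, and the question was how the macrophage transcriptome differs without it. The labels give batch 1 for every Control and batch 2 for every knockout library, so an effect of batch and one of genotype cannot be told apart in these values. The labels do not say whether replicates came from separate animals or cultures, and p-values then measure only the spread between these libraries.

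A T cell needs a second signal beside its antigen receptor. CD80 and CD86 give it through CD28 and are captured by the inhibitory receptor CTLA-4, while ICOSL engages ICOS on activated T cells. CD40 works in the opposite sense, as the receptor by which T-cell CD40L licenses the presenting cell, and CD83 marks activated presenting cells and stabilises CD86 and MHC class II at the surface. PD-L1 (Cd274) and PD-L2 bind the checkpoint receptor PD-1, and VISTA (Vsir) is a further inhibitory B7 relative. TIM-3 (Havcr2) and the CD200 receptor (Cd200r1) are inhibitory receptors carried by the myeloid cell. LPS signalling through NF-kB is a classical inducer of Cd40, Cd80, Cd83 and Cd86, and interferons are classical inducers of Cd274.

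RefSeq promoter windows (build GRCm38.p6) were available for 6 of the 10 genes. The 250 bases before the start site are shown for Icosl, which fell with the smallest adjusted p among these genes, for Cd80, which was not called, and for Cd274, the member with the highest level. Windows of 300 bases (250 before and 50 after the start) were searched on both strands for the letters GGG and CC with any 5 bases between them (NF-kB), TGANTCA (AP-1), GAAA and GAAA with any 2 bases between them (interferon-stimulated response element) and TTC and GAA with any 3 bases between them (interferon-gamma activated site). Capitals mark every match. The windows lie on the plus strand at chr10:78069118-78069367 for Icosl, chr16:38458683-38458932 for Cd80 and chr19:29367188-29367437 for Cd274.
Icosl: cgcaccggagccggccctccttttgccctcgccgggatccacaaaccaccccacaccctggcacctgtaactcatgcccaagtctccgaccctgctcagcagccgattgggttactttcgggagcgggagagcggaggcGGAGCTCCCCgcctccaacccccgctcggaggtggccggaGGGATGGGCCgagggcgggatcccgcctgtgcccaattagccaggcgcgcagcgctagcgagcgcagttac
Cd80: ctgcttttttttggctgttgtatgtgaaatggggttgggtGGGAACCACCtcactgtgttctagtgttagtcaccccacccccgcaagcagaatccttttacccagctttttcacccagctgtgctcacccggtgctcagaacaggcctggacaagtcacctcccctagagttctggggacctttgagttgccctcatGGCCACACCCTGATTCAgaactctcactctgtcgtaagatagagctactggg
Cd274: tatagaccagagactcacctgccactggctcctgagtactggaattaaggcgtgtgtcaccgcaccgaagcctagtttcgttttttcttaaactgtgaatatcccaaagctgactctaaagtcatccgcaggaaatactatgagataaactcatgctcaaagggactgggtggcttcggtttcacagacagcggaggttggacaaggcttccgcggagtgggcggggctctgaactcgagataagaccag

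The Icosl window held 2 matches to the NF-kB letters, the Cd80 window 2 together with 1 AP-1 match that directly follows the second of them, and the Cd274 window 0 matches to any of the 4. The NF-kB letters are loose, and 50.8% of all 32851 promoter windows of this length hold them, against 7.81% for AP-1, 3.44% for the response element and 8.3% for the interferon-gamma site. A match is a description of letters, and an absent match says nothing about the factor.

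The 6 libraries held 36448832 to 59241779 reads recovered from the TPM values. Cd74, the targeted gene, stood at 593 to 632 TPM in Control and 63.1 to 65.3 TPM in the knockout, in the direction of the labels. It was 1 of 29 rows whose values were not whole reads at any single gene length searched. At the annotated length 3 of its 3 Control values were whole reads and 0 of its 3 knockout values were, so the knockout values are in doubt and this check of the labels is weak. Cd74 was not alone in this, since 21 of the 29 rows had all Control values whole at the annotated length. All 9 member rows were whole reads in all 6 libraries at the annotated length. Macrophage markers were high in both groups, with a summed level of 10600 to 11140 TPM in Control and 13940 to 15190 TPM in the knockout over 8 markers, of which Mrc1 stayed under 1 TPM in every library. Markers of other antigen-presenting cells were near 0. Of 8 dendritic cell markers 4 had a row, with a summed level of 1.11 to 2.34 TPM in Control and 1.57 to 2.76 TPM in the knockout, and Flt3, Clec9a, Cd209a and Siglech had none. Of 5 B-cell markers 2 had a row (0.462 to 0.7 TPM and 0.19 to 0.771 TPM summed), Ms4a1 had none, and 0 of 6 T-cell markers had a row. Of 7 neutrophil markers 2 had a row, summing to 4.55 to 6.6 TPM in Control and 16.3 to 22.6 TPM in the knockout. Most of that sum was S100a8 in every library. The 3 of 4 stromal markers with a row summed to 0.841 to 1.43 TPM over all libraries. Among the macrophage markers, Lyz2, Csf1r and Itgam were higher and Adgre1 lower in the knockout. The part of all these marker differences in the results was not tested.

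Against that background, 6 of the 9 measured genes fell in the knockout and 0 rose. Cd86, Cd40, Icosl, Cd274, Cd83 and Cd200r1 fell by 28.1% to 48% of the Control mean, whereas Cd80, Vsir and Havcr2 differed by less and did not pass the test. Calls are from limma on log2(TPM + 1) with a Benjamini-Hochberg adjusted p under 0.05 over all 13034 tested rows, and all 9 rows passed the filter of a mean of 1 TPM. Of all tested rows 10.1% were called lower and 18.5% higher, 28.5% in all, and groups did not overlap for 19.8% with the knockout lower and 30.2% with it higher. At an unadjusted p under 0.05, 7 members were lower and 0 higher, with no share over all rows given here for that threshold. Limma-voom on the recovered reads called 7 members lower and 0 higher. Over the table the limma-voom fit called 1776 rows lower and 2299 higher, so more rows were lower than in the main fit. The median log2 fold change was -0.59 over the 9 members and 0.04 over all tested rows. The members were chosen with earlier results of these data known, so this contrast is a description. Over the table as a whole 2406 rows were higher and 1313 lower, a split that became 1821 and 1715 after median-of-ratios scaling and 1735 and 1868 after upper-quartile scaling. Under either scaling 7 members were called lower, the same 6 and Cd80. In bulk RNA, fewer cells expressing a gene and less of its RNA per cell cannot be told apart.

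**Figure D1:**
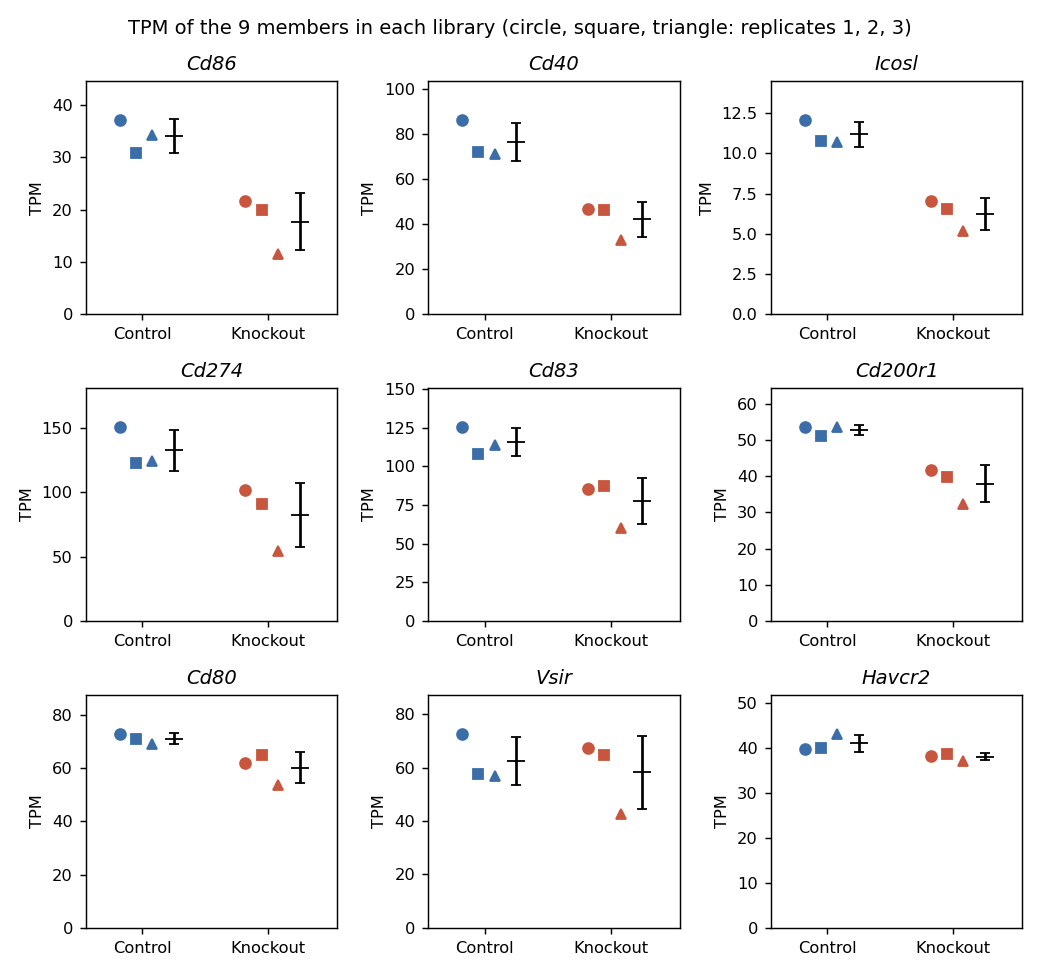
TPM of the 9 members with a row in each library, with Control in blue, knockout in red, symbols for replicates 1 to 3, and the mean with SD (n = 3) beside the points. Every panel starts at 0. Groups are apart in all panels except that of Vsir, and knockout replicate 3 (red triangle) is the lowest point in each panel.

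Cd86 encodes the B7 ligand that presenting cells carry early in a response. Control replicates 1 to 3 had 37.2, 30.8 and 34.3 TPM, and knockout replicates 1 to 3 had 21.7, 20.0 and 11.5 TPM, an order kept for the genes below. The groups did not overlap, and knockout replicate 3 lay well below the other knockout libraries. Mean levels were 34.1 ± 3.18 TPM in Control and 17.7 ± 5.44 TPM in the knockout (SD, n = 3 each), with a limma fold change of -0.95 on the log2(TPM + 1) scale (SE 0.21, limma adjusted p = 0.0171), the lowest among the members. Without knockout replicate 3 it was -0.68. Cd86 was no longer called once Control replicate 1 or Control replicate 3 was left out (limma adjusted p = 0.0640 and 0.0569).

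Cd80, the other B7 ligand of CD28 and CTLA-4, moved less. Its level was 72.9, 71.0 and 68.9 TPM in the Control libraries and 61.7, 65.0 and 53.6 TPM in the knockout libraries. All 3 knockout values lay below all 3 Control values, by a narrow margin. Control averaged 70.9 ± 2.00 and the knockout 60.1 ± 5.88 TPM (SD, n = 3 each), with a log2 fold change of -0.24 (SE 0.08, 95% interval -0.42 to -0.06, limma adjusted p = 0.0509), just short of the threshold. It was called lower under both scalings (limma adjusted p = 0.0288 and 0.0272), with limma-voom (adjusted p = 0.0196) and with a filter of a mean of 5 TPM (limma adjusted p = 0.0407). Cd80 stayed uncalled with no filter (limma adjusted p = 0.0684) and with a pseudocount of 0.1 (limma adjusted p = 0.0517). With 1 library left out it was called only without knockout replicate 2 (limma adjusted p = 0.0437). The other such fits gave limma adjusted p = 0.0536 to 0.1365.

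Since Cd80 and Cd86 share their receptors, their ratio within a library was taken, a quantity that library scaling cannot move. Cd80 over Cd86 was 1.96, 2.3 and 2.01 in the Control libraries and 2.84, 3.25 and 4.65 in the knockout libraries. The ratio was higher in all 3 knockout libraries, with geometric means of 2.09 and 3.5, a log2 difference of 0.75. An exact two-sided permutation test gave p = 0.1 (0.1 adjusted over the 2 ratios computed), which is the smallest p that 3 against 3 libraries allow. Without knockout replicate 3 the log2 difference was 0.545, still with no overlap.

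Icosl, the ligand of ICOS, was the lowest of the 9 in both groups and the member with the smallest adjusted p. Its level was 12.1, 10.8 and 10.7 TPM in Control and 7.03, 6.55 and 5.15 TPM in the knockout, from 400 to 799 reads a library. The highest knockout library lay below the lowest Control library, and knockout replicate 3 was the lowest. Mean levels were 11.2 ± 0.772 TPM in Control and 6.24 ± 0.978 TPM in the knockout (SD, n = 3 each), with a log2 fold change of -0.76 (SE 0.12, limma adjusted p = 0.00589). Counting error alone at 400 reads is 5% of the value if reads are independent, against a spread of 15.7% between the knockout replicates.

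Cd40, the receptor through which helper T cells activate the presenting cell, stood at 86.5, 72.4 and 71.4 TPM in Control and at 47.1, 46.3 and 33.2 TPM in the knockout. The highest knockout library lay far below the lowest Control library. The mean went from 76.8 ± 8.42 to 42.2 ± 7.78 TPM (SD, n = 3 each), a log2 fold change of -0.86 (SE 0.14, limma adjusted p = 0.00707). Cd83, the activation marker, was at 126, 108 and 114 TPM in Control and at 85.4, 87.1 and 60.2 TPM in the knockout. Its groups did not overlap either, and Control averaged 116 ± 9.0 and the knockout 77.6 ± 15.1 TPM (SD, n = 3 each; log2 fold change -0.59, SE 0.14, limma adjusted p = 0.0217). The Cd83 call ended without Control replicate 1 (limma adjusted p = 0.0772) or Control replicate 3 (limma adjusted p = 0.0629).

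Among the checkpoint ligands, Cd274, which encodes PD-L1, had the highest level of the 9 genes. It stood at 151, 123 and 124 TPM in Control and at 102, 90.9 and 54.8 TPM in the knockout. The groups did not overlap, but the knockout libraries spread widely, with replicate 3 at 56.9% of the mean of the other two. Mean levels were 133 ± 15.9 TPM in Control and 82.5 ± 24.6 TPM in the knockout (SD, n = 3 each), with a log2 fold change of -0.72 (SE 0.22, limma adjusted p = 0.0446). This call ended under 5 of 14 alternatives, more than that of any other member. It was lost with no filter on low values (limma adjusted p = 0.0619), without Control replicate 1, 2 or 3 (limma adjusted p = 0.138, 0.0848 and 0.0927) and without knockout replicate 2 (limma adjusted p = 0.0625). Without knockout replicate 3 the fold change was -0.45 on the log2 scale and was still called (limma adjusted p = 0.0209).

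PD-L1 also binds CD80 on the same membrane. The ratio of Cd274 to Cd80 was 2.07, 1.73 and 1.8 in the Control libraries and 1.65, 1.4 and 1.02 in the knockout libraries. Every knockout ratio was below every Control ratio, with geometric means of 1.86 and 1.33 and a log2 difference of -0.49 (exact permutation p = 0.1, adjusted 0.1, the smallest the design allows). The difference was -0.30 without knockout replicate 3. The planned ratio of Cd274 to Pdcd1lg2 could not be formed because Pdcd1lg2 had no row.

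**Figure D2:**
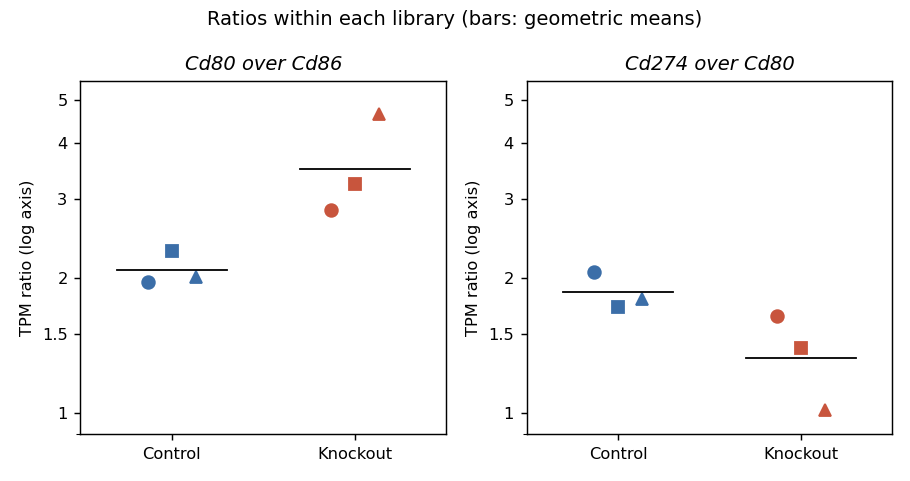
TPM ratio of Cd80 to Cd86 (left) and of Cd274 to Cd80 (right) in each library on a log axis, with geometric means as bars and symbols for replicates 1 to 3. The first ratio is higher and the second lower in all 3 knockout libraries, with knockout replicate 3 farthest from Control in both.

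Vsir, the gene of VISTA, was not called and its groups overlapped. It stood at 72.8, 57.8 and 56.7 TPM in Control and at 67.5, 64.8 and 42.6 TPM in the knockout. Control averaged 62.4 ± 8.98 and the knockout 58.3 ± 13.7 TPM (SD, n = 3 each; log2 fold change -0.12, 95% interval -0.54 to 0.31, limma adjusted p = 0.659), an interval that leaves room for a change in either direction. Its sign turned without knockout replicate 3 (0.092).

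Of the inhibitory receptors, Cd200r1 was called and Havcr2 was not, and the difference between them was not tested. Cd200r1, which restrains myeloid cells on meeting CD200, was at 53.7, 51.1 and 53.6 TPM in Control and at 41.9, 39.8 and 32.3 TPM in the knockout. The Control libraries lay close together and above all knockout libraries. The mean fell from 52.8 ± 1.49 to 38.0 ± 5.05 TPM (SD, n = 3 each), a log2 fold change of -0.47 (SE 0.09, limma adjusted p = 0.0124). Havcr2, which encodes TIM-3, was at 39.8, 40.0 and 43.2 TPM in Control and at 38.2, 38.7 and 37.2 TPM in the knockout. Its values were the tightest of all the members in the knockout, and the groups were apart by only a small gap. Mean levels were 41.0 ± 1.89 TPM in Control and 38.0 ± 0.772 TPM in the knockout (SD, n = 3 each), and the difference was not called (log2 fold change -0.11, 95% interval -0.23 to 0.02, limma adjusted p = 0.167). The lower end of that interval is a fall of 0.23 on the log2 scale under this fit. The Havcr2 estimate was -0.145 after median-of-ratios scaling (limma adjusted p = 0.07635) and -0.160 after upper-quartile scaling (limma adjusted p = 0.05518), not called in either.

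**Figure D3:**
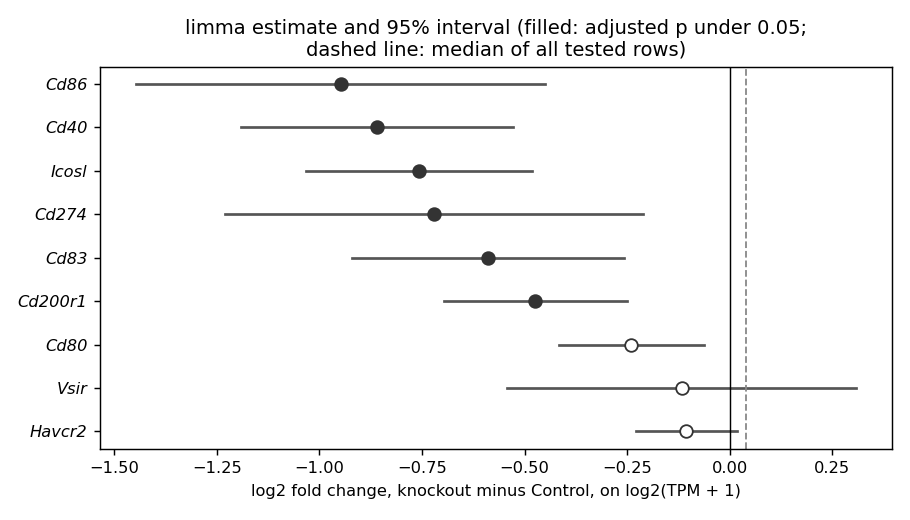
limma log2 fold change of each member (knockout minus Control, on log2(TPM + 1)) with its 95% interval, with filled points for an adjusted p under 0.05 and a dashed line at the median of all tested rows (0.04). Estimates run from -0.95 for Cd86 to -0.11 for Havcr2, and the interval of Vsir is the one that reaches furthest above 0.

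In the order of levels, Cd274 and Cd83 led in both groups, and Cd86 and Icosl came last. In Control the order was Cd274, Cd83, Cd40, Cd80, Vsir, Cd200r1, Havcr2, Cd86 and Icosl. The ranges of neighbours overlapped for Cd274 with Cd83, Cd40 with Cd80 and Cd80 with Vsir, and every other pair of neighbours was apart. In the knockout, Cd40 had moved from the third to the fifth place, behind Cd80 and Vsir. There the ranges of all neighbours from Cd274 down to Cd200r1 overlapped, and only Cd86 and Icosl stood apart from the gene above them. Summed over the 9 genes, the level was 565 to 652 TPM in Control and 331 to 472 TPM in the knockout. The share of Cd274 in that sum was 21.6% to 23.2% in Control and 16.6% to 21.6% in the knockout, and that of Cd80 was 11.2% to 12.6% and 13.1% to 16.2%.

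Single libraries stood out for several members at once. Knockout replicate 3 was the lowest of the 6 libraries for 9 of the 9 genes, against 30.4% of all tested rows and 79.2% of the rows called lower. Relative to the mean of knockout replicates 1 and 2 it held 55.4% of the Cd86 level and 56.9% of the Cd274 level, but 96.7% of the Havcr2 level. Control replicate 1 was the highest of the 6 libraries for 8 of the 9 genes, against 20.3% of tested rows. Its share among the rows called lower, the nearer comparison, is not given here. Control replicate 1 also had the fewest recovered reads (36448832), and the part of depth was not tested. The groups did not overlap, with the knockout lower, for 8 of the 9 members, against 19.8% of tested rows. Without knockout replicate 3 the same 6 genes were called, with log2 fold changes of -0.70 for Cd40, -0.68 for Cd86, -0.64 for Icosl, -0.45 for Cd274, -0.42 for Cd83 and -0.36 for Cd200r1. Without Control replicate 1 or Control replicate 3, 3 were called (Cd40, Icosl and Cd200r1), and these 3 held their calls whichever library was left out. Calls were also fewer over the whole table. There 716 rows were called lower without Control replicate 1 and 666 without Control replicate 3, against 1313 with all libraries. Without knockout replicate 3 the count was 1156.

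**Figure D4:**
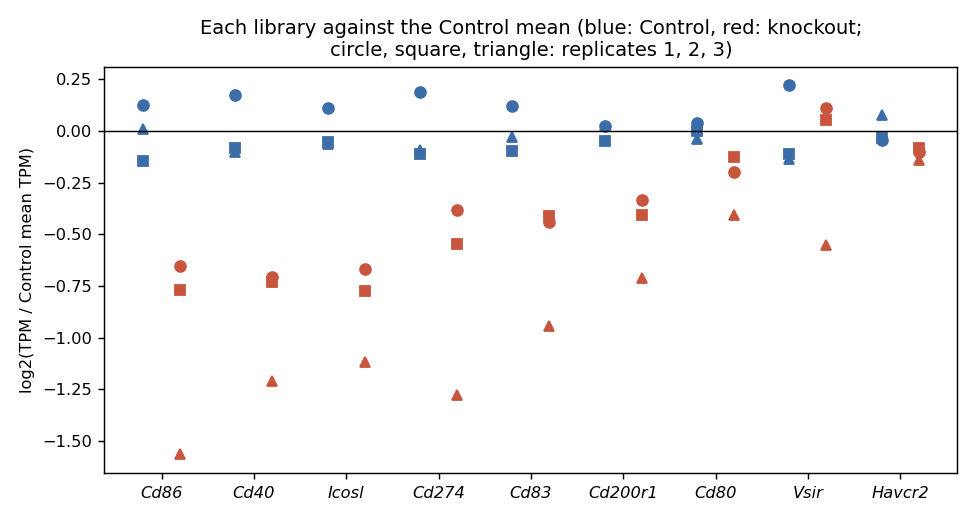
log2 of each library's TPM over the Control mean TPM for the 9 members, with Control in blue, knockout in red and symbols for replicates 1 to 3. Knockout replicate 3 (red triangle) reaches -1.56 for Cd86 and -1.28 for Cd274, whereas all 3 knockout libraries of Havcr2 lie between -0.14 and -0.08.

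Genes with the most similar pattern were looked for around the 3 called members with the largest fold changes, by the Euclidean distance of log2(TPM + 1) after centring each row, over the 6 libraries. Nearest to Cd86 were Trpm4 (distance 0.152), Gtpbp2 (0.169) and Clec7a (0.171), the last encoding the fungal receptor Dectin-1. Nearest to Cd40 were Otub2 (0.090), the cytokine gene Tnf (0.108) and Nfkbiz (0.117), which encodes an atypical inhibitor-of-NF-kB protein. Nearest to Icosl were Dusp1 (0.048), a MAP kinase phosphatase gene, Rassf4 (0.065) and the prostacyclin receptor gene Ptgir (0.075). Among the members themselves, Icosl lay 0.195 from Cd40, at place 23 among all rows, and Cd274 lay 0.306 from Cd86, at place 29. These distances follow mostly from the difference between the groups and carry no test.

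The wider set of T-cell costimulatory and coinhibitory ligands held 20 listed genes, of which 12 were tested. Of these, 1 rose, 4 fell and 7 were not called, with a median log2 fold change of -0.32. Over all tested rows 18.5% were called higher and 10.1% lower, and no list was tested as a set against these shares. The B7 relative Cd276 (B7-H3) fell from 13.0 ± 0.482 to 8.39 ± 1.15 TPM and Tnfsf9, the 4-1BB ligand, from 81.5 ± 11.0 to 54.8 ± 3.60 TPM (SD, n = 3 each; limma adjusted p = 0.00741 and 0.00882). Tnfsf15, the TNF-like cytokine TL1A, fell from 1.89 ± 0.474 to 0.458 ± 0.213 TPM (limma adjusted p = 0.0122) and passed the filter through its Control level. Cd47, the signal that blocks uptake through SIRP-alpha, fell by 0.49 on the log2 scale, a call lost when any Control library was left out. Icam1, the adhesion ligand of LFA-1, was called higher at 0.16 (limma adjusted p = 0.0467), but not after either scaling, with limma-voom or in 5 of the 6 fits that left out a library. Pvr (-0.14, groups apart), Lgals9 (0.09) and Cd48 (0.03) were not called.

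The CD40 signalling list, from TRAF adaptors to the NF-kB subunits, had 16 genes, all tested, with 1 higher, 6 lower and 9 not called (median -0.20). The shares over all tested rows were 18.5% higher and 10.1% lower. Traf1, an adaptor gene that is itself an NF-kB target, fell by 0.91 on the log2 scale (SE 0.11, limma adjusted p = 0.00328), from 79.7 ± 6.54 to 42.3 ± 5.98 TPM (SD, n = 3 each). Nfkb2, the precursor of the non-canonical subunit p52, fell by 0.68 (limma adjusted p = 0.00603) and Rel, the c-Rel gene, by 0.42 (limma adjusted p = 0.0206), a call that was lost when any Control library was left out. Traf3, which holds the non-canonical pathway in check, was higher at 0.43 (limma adjusted p = 0.0179), a call lost without Control replicate 1 or 3. Traf2 (-0.10), Traf6 (0.01) and Map3k14 (0.12), the gene of the NF-kB-inducing kinase NIK, were not called.

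The next list follows the interferon-gamma and STAT route, a known inducer of Cd274. Of 14 listed genes 13 were tested, with 2 higher, 1 lower and 10 not called, and the median was 0.04, as over all tested rows. The counts too lie near the shares over all tested rows, 18.5% higher and 10.1% lower. Jak2, which with Jak1 encodes the kinases of the interferon-gamma receptor, fell from 89.1 ± 0.764 to 59.0 ± 9.84 TPM (SD, n = 3 each; log2 fold change -0.60, limma adjusted p = 0.0108). Jak1 was at 130 ± 4.12 and 133 ± 3.27 TPM and was not called (0.04, limma adjusted p = 0.550). Irf2 was higher at 0.29 (limma adjusted p = 0.0171), a call lost when any of 4 libraries was left out. Irf1, which binds the Cd274 promoter, was at 12.7 ± 1.03 and 12.4 ± 0.349 TPM (SD, n = 3 each) and was not called (-0.03, limma adjusted p = 0.804).

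Genes that act on the member proteins after translation showed 2 rises, 1 fall and 6 genes not called among 9 tested (median -0.003). These counts lie near the shares over all tested rows, 18.5% higher and 10.1% lower. Adam10 and Adam17, the sheddases that cut many surface proteins, rose by 0.33 and 0.24 on the log2 scale (limma adjusted p = 0.0103 and 0.0205), with the Adam17 call lost without Control replicate 1 or 3. Cmtm4 fell by 0.22 (limma adjusted p = 0.0178), a call lost when any of 4 libraries was left out. Its relative Cmtm6, which protects PD-L1 from degradation, was not called (0.17, limma adjusted p = 0.0874). Among relatives and partners of CD200R and TIM-3, 5 of 10 tested genes rose, 3 fell and 2 were not called (median 0.05). Both counts lie above the shares over all tested rows, 18.5% higher and 10.1% lower, and the list was not tested as a set. Cd200r4, an activating relative of Cd200r1, fell from 36.8 ± 0.819 to 20.7 ± 2.89 TPM and Cd200r2 from 27.5 ± 2.01 to 21.1 ± 1.81 TPM (SD, n = 3 each; limma adjusted p = 0.00319 and 0.0170), the second not without Control replicate 1 or 2. Genes of this family are similar in sequence, so reads may have been shared among Cd200r1, Cd200r2 and Cd200r4. Fyn, a Src-family kinase gene, fell by 0.47. Dok2, the adaptor by which CD200R signals, rose by 0.38 (limma adjusted p = 0.00444), the phosphatase gene Inpp5d by 0.31 and Hmgb1, a TIM-3 ligand gene, by 0.69 (limma adjusted p = 0.00482).

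**Figure D5:**
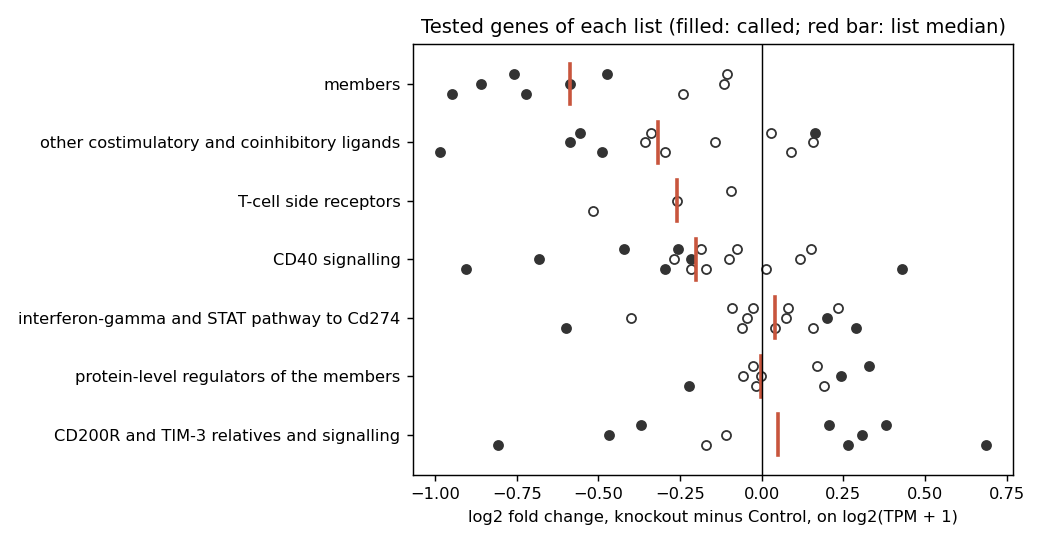
limma log2 fold change (knockout minus Control, on log2(TPM + 1)) of the 9 members and of the tested genes in 6 other lists, with 1 point a gene, filled where called, and a red bar at each list's median. The members' median of -0.59 is the lowest of the 7 medians, and the lists of interferon, protein-level and CD200R or TIM-3 genes have medians between -0.003 and 0.05. Members and lists were chosen with earlier results of these data known, so the order of the medians is a description and carries no test.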

How the data were processed

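Bulk RNA-seq covered 3 Control and 3 Cd74 knockout libraries. The deposited table holds TPM for 17217 rows, a unit taken from the values because the header gives none, and 0 per-sample columns were left unmapped. Per the submitters' processing notes, which state no roles, the build GRCm39 and the tool DESeq2 were involved; the aligner, counter and annotation are not given in the sources used here. Reads were recovered as TPM times gene length (GENCODE M21 union exons, used for lengths alone) divided by a step per library. At a tolerance of 0.02 read 95.7% of rows were whole at the annotated length, and 706 more were whole at another length.

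Tests used limma 3.58.1 in R 4.3.3 (lmFit and eBayes, trended and robust) on log2(TPM + 1), rows of mean TPM at least 1, two-sided, Benjamini-Hochberg over 13034 rows, threshold 0.05. Fold changes on this scale understate the change of low genes. The script was tested on simulated data. Alternatives were other pseudocounts, filters and scalings, limma-voom, a replicate block, removal of the 29 rows that were not whole reads, and leaving out each library. The members and lists were chosen with earlier results of these data known. All members are named; from other lists up to 3 called genes a direction with groups apart and the largest fold change, and others named were chosen after their values were seen. Some listed genes are not reported here by name. Ratios were tested by exact permutation.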

Additional observations from a re-analysis of the deposited data

How the results depend on the processing

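Of the 14 alternatives, 8 kept all libraries and 6 left out 1 each. With all libraries kept, 5 members were called lower with no filter, 6 with a pseudocount of 0.1 and without the rows that were not whole reads, and 7 otherwise, and 0 were called higher in any of the 14. Over all rows the 8 alternatives that kept all libraries called 1159 to 1868 lower and 1735 to 2438 higher. Leaving out 1 library gave 3 to 6 members called lower (3 without Control replicate 1 or 3) and 0 to 0 higher, and 666 to 1222 rows lower and 1312 to 2094 rows higher in all, against 1313 and 2406. The log2 difference in Cd80 over Cd86 ran from 0.545 to 0.90 and that in Cd274 over Cd80 from -0.64 to -0.30 with 1 library left out. Vsir ran from -0.234 to 0.092, positive without knockout replicate 3 alone. The cause of these shifts was not tested. The replicate numbers are shared by the groups, but same-numbered libraries did not clearly deviate together (r of 0.13, -0.08 and 0.03 across genes). Differently numbered libraries gave r of -0.17 to 0.17. With 3 libraries a group these values cannot decide whether same-numbered libraries were paired, and the labels do not say. A replicate block gave 7 members lower (Cd80 added, limma adjusted p = 0.0339), 2331 rows higher and 1380 lower, and left the log2 ratio differences at 0.75 and -0.49 (exact sign-flip p = 0.25, the smallest 3 pairs allow). The member values rest on 400 to 7142 reads each, and no fit at matched depth was made.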

Other observations

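Receptors that T cells use for these ligands were mostly at or near the lower limit of the table. Of 13 listed genes 7 had a row and 3 were tested. Limma called 0 of these 3 higher and 0 lower, with 0 in either direction at an unadjusted p under 0.05 and 0 by limma-voom. Over all tested rows limma called 18.5% higher and 10.1% lower, so with 3 genes tested these counts say little about the receptors. Cd28 stood at 0.952 to 1.25 TPM in Control and 0.624 to 0.942 TPM in the knockout, and Ctla4 and Cd40lg had no row. Pdcd1, the PD-1 gene, was measured at 23.3 ± 3.49 TPM in Control and 21.6 ± 1.34 TPM in the knockout (SD, n = 3 each), in libraries where none of 6 T-cell markers had a row. Tnfrsf9, the 4-1BB gene, ranged from 8.33 to 14.6 TPM in Control and from 4.24 to 14.9 TPM in the knockout, so its groups overlapped throughout. Cd200, the ligand of the CD200 receptor, was at most 0.908 TPM in any library.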
